A study of Aspergillus oryzae with 8 samples.

Results

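In Aspergillus oryzae RIB40, the koji mold of sake and soy sauce making, 71 genes were far more abundant in every library from mycelium given dithiothreitol (DTT) than in any library from untreated mycelium, on agar as well as in shaken liquid. The genes were selected on read levels. A gene belonged to this group if its lowest level in the 4 DTT libraries was at least 10 CPM and at least 5 times its highest level in the 4 control libraries, where CPM stands for reads per 1000000 reads assigned to genes in the same library, rRNA included. Of 11880 genes listed, 72 met both conditions. The rule left out by name 5 genes, bipA, trr1, derA, fgaCat and cat1, and of these only trr1 met the conditions, which left 71. The same measurements therefore chose the genes and show their DTT response, so every contrast of DTT with control is given below as a description and supports nothing.

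The libraries, 2 per condition, came from solid culture with 20 mmol/L DTT, liquid culture with 20 mmol/L DTT, untreated solid culture and untreated liquid culture, and all 8 are of the wild-type strain RIB40 in the same medium with 2.0% glucose at pH 5.5. Untreated mycelium grew for 40 h at 30 °C, either on a cellophane sheet laid on an agar plate or in flasks holding 30 mL, shaken at 200 rpm. In the treated solid culture the cellophane was transferred to filter paper wetted with 20 mL of DTT medium, while in the treated liquid culture DTT went into the flask. No exposure time is given, and no such transfer is described for the solid controls, so on agar DTT and the transfer cannot be told apart. Replicate 1 of every condition had inserts of 500 bp and replicate 2 inserts of 200 bp, and whether each had a culture of its own is not stated, so the p-values reflect how far these libraries scatter, which may be technical. Reads assigned to genes numbered 5880753 to 8912897 per library, of which 8.21% to 37.6% fell on 3 rRNA genes, and 3 reads corresponded to 0.337 to 0.510 CPM. These are bulk RNA samples, in which fewer cells of a kind and less RNA per cell cannot be told apart.

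DTT reduces disulfide bonds. Secreted and membrane proteins form these bonds in the endoplasmic reticulum (ER), and fungi answer unfolded protein there with the unfolded protein response, in which the sensor Ire1 splices the mRNA of the transcription factor HacA and chaperones, foldases and degradation factors rise. DTT also acts outside the ER, as a reductant and as a foreign compound, and filamentous fungi meet such compounds with thioredoxin and glutathione systems and with efflux pumps of the ATP-binding cassette and major facilitator families. Of the 71 genes, 1 carries a symbol in the RefSeq gene table of assembly ASM18445v3, atrF, and that table names only 714 of 12347 genes of this genome. The other 70 are given by locus tag, without a role.

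Together the 71 genes took 3.003% and 5.48% of all reads in the solid DTT libraries (replicates 1 and 2) and 9.98% and 4.64% in the liquid DTT libraries. They took 0.102% and 0.100% in the solid control libraries and 0.128% and 0.0997% in the liquid control libraries. The median gene stood at 108 and 147 CPM in the solid DTT libraries and at 402 and 152 CPM in the liquid DTT libraries, against 3.08 and 5.35 CPM in the solid control and 4.42 and 2.55 CPM in the liquid control libraries. Levels without DTT, which the rule bounds from above, were low in most of these genes. At 10 CPM or more in both solid control libraries were 16 of the 71 and 5564 of the 9438 genes tested below. In both liquid control libraries 20 of the 71 and 5449 of the 9438 were. In 43 of them the highest control library was under 10 CPM and in 6 it was under 1 CPM, whereas only 4 reached 100 CPM in a control library.

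**Figure D1:**
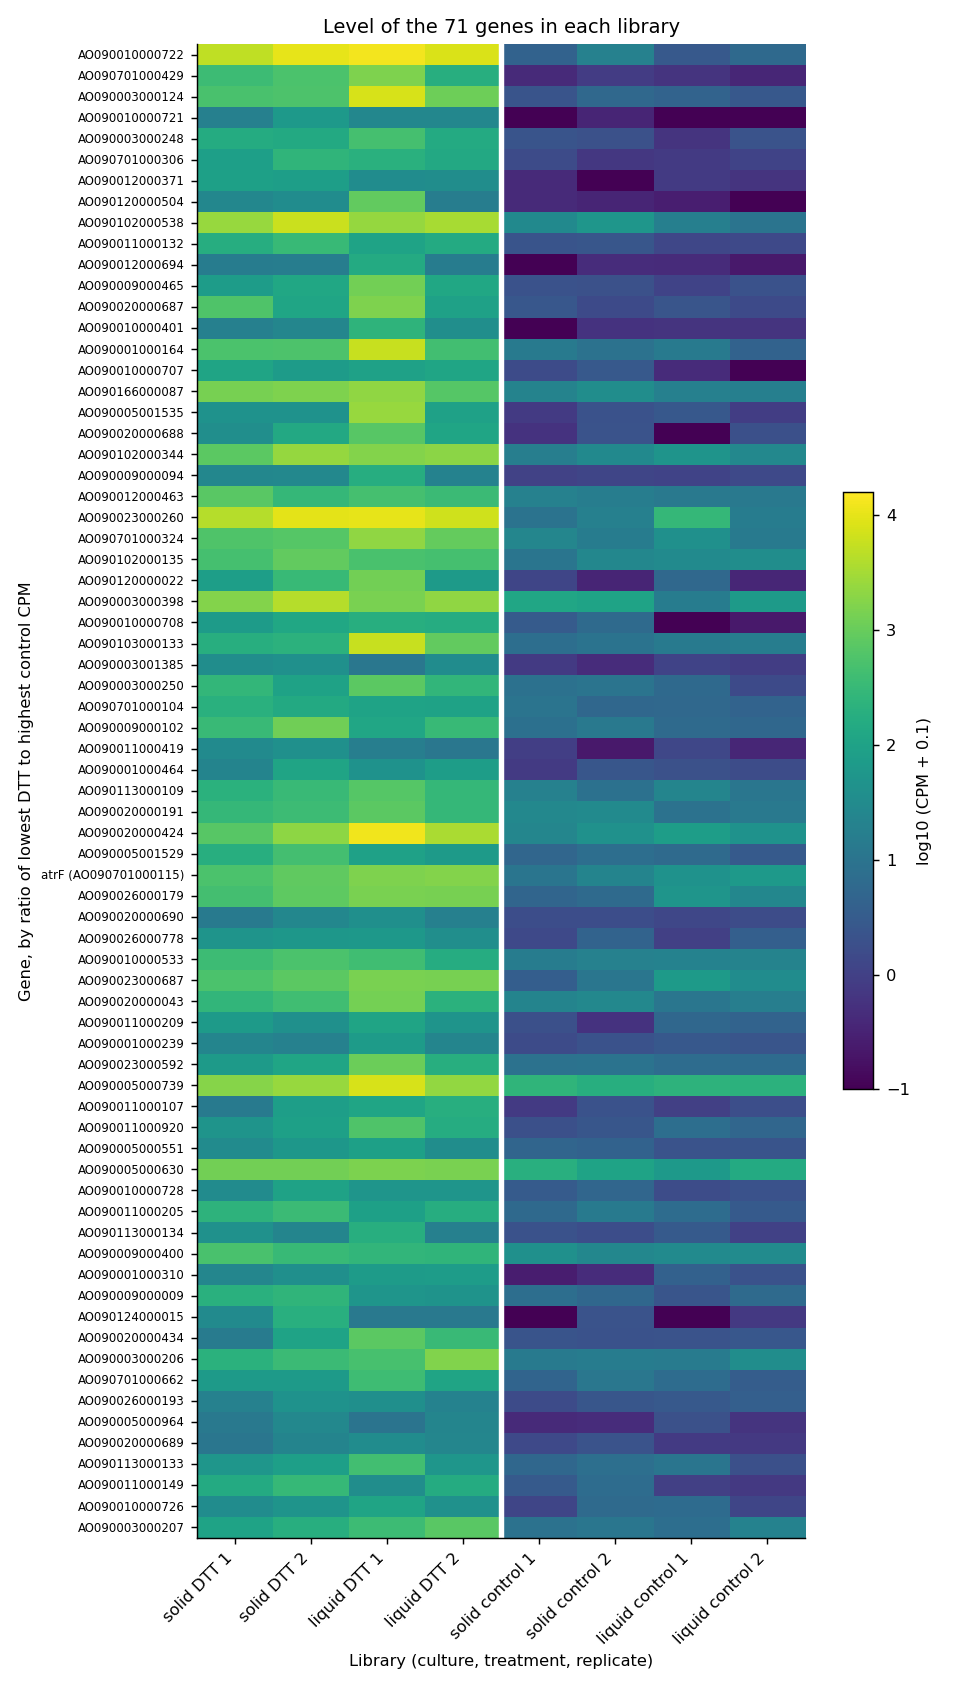
Level of each of the 71 genes (rows, largest ratio of lowest DTT to highest control library at the top) in each of the 8 libraries (columns), as log10 of CPM plus 0.1. The 4 DTT columns on the left are lighter than the 4 control columns in every row, which the rule fixes, and the liquid DTT replicate 1 column holds the highest value in 41 rows.

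The ratio of the lowest DTT library to the highest control library had a median of 9.26, was 10 or more in 32 genes and 50 or more in 6. AO090010000722 had the largest ratio, 256.6. It stood at 4964 and 10313 CPM in the solid DTT libraries and 12602 and 7891 CPM in the liquid DTT libraries, against 4.21 and 19.4 CPM in the solid control and 2.72 and 5.87 CPM in the liquid control libraries. All 4 treated libraries lay within a few-fold of each other, and solid control replicate 2 was the highest control.

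AO090701000429 followed with a ratio of 249.9. It had 359 and 529 CPM in the solid DTT and 1551 and 183 CPM in the liquid DTT libraries, against 0.324 and 0.730 CPM in the solid control and 0.510 and 0.255 CPM in the liquid control libraries, where it rested on 2 to 6 reads each. AO090003000124, with a ratio of 87.0, had 498 and 547 CPM in the solid DTT libraries and 7661 and 1136 CPM in the liquid DTT libraries, against 2.10 and 5.72 CPM in the solid control and 4.42 and 2.55 CPM in the liquid control libraries. Liquid DTT replicate 1 stood well above the other treated libraries in both genes.

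AO090010000721, the direct neighbour of AO090010000722, was the most nearly silent of the 71 without DTT. It had 131, 592, 154 and 225 reads in solid DTT replicates 1 and 2 and liquid DTT replicates 1 and 2, against 0 and 2 reads in the solid control and 0 and 0 reads in the liquid control libraries. Scaled to library size, the solid DTT level was 320.7 times the solid control level, with an exact 95% binomial interval of 88.4 to 2653 that covers counting error only. In liquid culture it was at least 117-fold higher under DTT, against a floor of 3 reads over both control libraries.

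AO090012000371 showed the same near silence, with 669 and 736 reads in the solid DTT and 203 and 307 reads in the liquid DTT libraries, against 2 and 0 reads in the solid control and 4 and 4 reads in the liquid control libraries. Its scaled ratio in solid culture was 623.1, with an exact 95% interval of 172.2 to 5150. AO090120000504 had 188 and 304 reads in the solid DTT libraries and 5453 and 136 reads in the liquid DTT libraries, against 2 and 2 reads in the solid control and 1 and 0 reads in the liquid control libraries. Here a single treated library, liquid DTT replicate 1, held most of the reads. The scaled ratio in liquid culture was 5174, with an exact 95% interval of 928.3 to 204412 that leaves out this difference between libraries. Another 3 of the 12 largest ratios belonged to genes at moderate treated levels: AO090003000248 (147 to 466 CPM in the DTT libraries, 0.510 to 2.10 CPM in the controls), AO090701000306 (86.4 to 251 CPM, against 0.609 to 1.46 CPM) and AO090011000132 (104 to 313 CPM, against 1.19 to 2.31 CPM). AO090009000465 stood at 75.3 and 123 CPM in the solid DTT and 1247 and 123 CPM in the liquid DTT libraries, against 1.02 to 1.94 CPM in the controls. AO090102000538 was the strongly expressed one among them, at 2413 to 5979 CPM in the DTT libraries and 10.1 to 53.5 CPM in the controls, and AO090012000694 is described below with its coverage.

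Dividing CPM by coding length allows levels of different genes to be compared. On this scale the mean over the 4 DTT libraries ran from 7.48 to 8058 CPM per kb, with a median of 298 CPM per kb. The highest was AO090023000260, at 8058 CPM per kb. Its level was 4225 and 9602 CPM in the solid DTT and 10070 and 6659 CPM in the liquid DTT libraries, against 9.55 and 18.6 CPM in the solid control and 293 and 15.1 CPM in the liquid control libraries. A single control, liquid replicate 1, thus stood far above the other 3, and it alone set this gene's ratio to 14.4.

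AO090005000739 came next, at 6204 CPM per kb for a coding length of 576 bp. A length of 288 bp fitted its coverage too and would give a higher value, so its place on this scale is uncertain. It was already abundant without DTT, with 1810 and 2552 CPM in the solid DTT and 7650 and 2282 CPM in the liquid DTT libraries, against 255 and 186 CPM in the solid control and 231 and 217 CPM in the liquid control libraries. AO090020000424, at 5694 CPM per kb, had 712 and 2118 CPM in the solid DTT and 12431 and 3391 CPM in the liquid DTT libraries, against 24.3 and 42.6 CPM in the solid control and 78.2 and 44.9 CPM in the liquid control libraries. Both solid DTT libraries lay below both liquid DTT libraries for this gene. The next 5 on this scale were AO090010000722 (3964 CPM per kb), AO090001000164 (3477), AO090003000398 (3283), AO090003000124 (2363) and AO090103000133 (2282).

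atrF (AO090701000115) bears the name of an ATP-binding cassette transporter of Aspergillus fumigatus, a family that pumps foreign compounds out of the cell. It had 544 and 843 CPM in the solid DTT libraries and 1559 and 1758 CPM in the liquid DTT libraries, against 10.5 and 22.1 CPM in the solid control and 45.1 and 61.2 CPM in the liquid control libraries. The liquid libraries were higher than the solid ones both with and without DTT. In the fit over all genes described below, the log2 DTT effect was 5.44 ± 0.65 (SE) in solid and 5.23 ± 0.64 in liquid culture, and the difference of the effects was 0.21 ± 0.75. Neither the level under DTT (log2 fold change solid over liquid -1.50 ± 0.54, edgeR adjusted p = 0.142) nor the level without DTT (-1.71 ± 0.55, adjusted p = 0.132) was called between the cultures, although DESeq2 called both lower in solid culture (adjusted p = 0.0165 and 0.00817).

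The thresholds cut through a continuum. Just inside the ratio threshold lay AO090003000207 (5.08), AO090010000726 (5.27) and AO090011000149 (5.27), and just outside it AO090012000675 (4.83), AO090011000201 (4.82) and AO090005000828 (4.80). Just inside the level threshold lay AO090005000964 (lowest DTT library at 10.1 CPM), AO090020000689 (11.1 CPM) and AO090011000419 (11.4 CPM), and just outside it AO090009000153 (9.71 CPM), AO090103000214 (9.43 CPM) and AO090113000073 (9.14 CPM). AO090009000153, with 38.1 times its highest control, was left out by the level condition alone. The library that limited a gene also varied. The lowest treated library was solid DTT replicate 1 in 35 genes and liquid DTT replicate 2 in 18, and the highest control was solid control replicate 2 in 26 and liquid control replicate 1 in 21. In 3 genes, AO090005000964, AO090023000260 and AO090120000022, liquid control replicate 1 was at least 3 times every other control, and in AO090010000721, AO090010000722 and AO090124000015 solid control replicate 2 was.

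A fit over all 9438 genes with enough reads (quasi-likelihood test of edgeR, with p adjusted over all genes by Benjamini-Hochberg and called under 0.05) included all 71. DTT against control was called higher for 64 of 71 in solid culture, where 4.86% of all tested genes were called higher, and for 71 of 71 in liquid culture, where 8.91% were. None was called lower, where 4.44% and 11.1% of all tested genes were in solid and liquid culture. These counts follow from the rule and are not read further. The median log2 DTT effect over the 71 was 5.28 in solid culture (range 3.09 to 9.67) and 5.96 in liquid culture (3.31 to 12.8), beside -0.05 and -0.03 over all tested genes. Values near the upper end in liquid culture are uncertain. The effect of AO090120000504, with 1 read in the liquid controls, ran from 7.39 to 15.25 when a library was left out. The smallest effects belonged to AO090005000630 in solid culture and AO090009000400 in liquid culture. The 7 genes not called in solid culture were AO090005000739, AO090005001535, AO090010000726, AO090023000592, AO090113000133, AO090113000134 and AO090120000504, with adjusted p between 0.0508 and 0.0903, and all 7 were called with insert size as a block. When a solid library was left out, fewer of the 71 and fewer of all tested genes were called higher in solid culture. The median solid effect over the 71 was then 5.36 without solid DTT replicate 1 and 5.27 without solid DTT replicate 2. It was 5.14 without solid control replicate 1 and 5.48 without solid control replicate 2.

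Some of the 71 genes were neighbours on the genome. In the gene order of the RefSeq table, 12 lay directly beside another of the 71, in a run of 4 (AO090020000687 to AO090020000690) and in the 4 pairs AO090010000721 and AO090010000722, AO090010000707 and AO090010000708, AO090003000206 and AO090003000207, and AO090113000133 and AO090113000134. With a limit of 7 places, chosen after the order was seen, 22 of the 71 fell into 9 stretches. Around and within these stretches lay 73 other genes, of which 59 were tested. Of those 59, 9 (15.3%) were called higher under DTT in solid culture, 11 (18.6%) in liquid culture and 5 in both, where 4.86% and 8.91% of all tested genes were called higher in solid and liquid culture. Another 4 were called lower in solid culture, 4 in liquid culture and 2 in both, where 4.44% and 11.1% of all tested genes were in solid and liquid culture. For calls in both cultures, and for genes lying side by side, no share over all genes was computed.

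The run of 4 was graded in level. AO090020000687 had 588 and 112 CPM in the solid DTT and 1548 and 92.5 CPM in the liquid DTT libraries, against 1.34 to 2.43 CPM in the controls. AO090020000688 had 36.5 and 140 CPM in the solid DTT and 706 and 116 CPM in the liquid DTT libraries, against 0 to 2.07 CPM in the controls. AO090020000689 stood lower, at 11.1 to 33.3 CPM under DTT against 0.638 to 2.07 CPM in the controls, and AO090020000690 likewise, at 13.8 to 38.4 CPM against 1.19 to 1.62 CPM. The genes directly beyond the run were called in neither culture. AO090020000686, beyond AO090020000687, had log2 DTT effects of 1.04 ± 0.63 in solid and 0.41 ± 0.63 in liquid culture. AO090020000691, beyond AO090020000690, had effects of 1.61 ± 1.17 and 3.22 ± 1.15.

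A second stretch held AO090010000721 and AO090010000722 together with AO090010000726 (34.04 to 108 CPM in the DTT libraries, 1.13 to 6.46 CPM in the controls) and AO090010000728 (32.4 to 100.2 CPM, against 1.53 to 5.11 CPM). AO090010000725, between them, was not one of the 71. It had 96.1 and 157 CPM in the solid DTT and 1217 and 253 CPM in the liquid DTT libraries, against 4.37 and 2.31 CPM in the solid control and 71.6 and 2.30 CPM in the liquid control libraries, so that a single control kept it out. On the other side of AO090010000721, AO090010000720 and AO090010000719 were called higher under DTT in both cultures at low levels, with 0.82 to 6.62 CPM and 1.09 to 12.9 CPM in the DTT libraries against at most 0.26 and 0 CPM in the controls. AO090010000729, which flanks the stretch beyond AO090010000728, fell in solid culture, with 15.9 and 31.8 CPM in the solid DTT libraries against 188 and 149 CPM in the solid control libraries (log2 effect -2.89 ± 0.43).

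The neighbours AO090010000707 and AO090010000708 were alike under DTT, at 72.0 to 112 CPM and 71.4 to 178 CPM, and both were close to absent from the untreated liquid culture. AO090010000705, nearby, fell under DTT in both cultures, to 17.1 and 18.2 CPM in the solid DTT libraries, against 90.5 and 113 CPM in the solid control, and to 4.29 and 8.69 CPM in the liquid DTT libraries, against 105 and 81.0 CPM in the liquid control. Of the other pairs, AO090113000133 and AO090113000134 both peaked in liquid DTT replicate 1, at 425 and 180 CPM, while the other 3 DTT libraries lay at 54.5 to 85.0 CPM and 17.9 to 42.8 CPM. AO090003000206 and AO090003000207 peaked instead in liquid DTT replicate 2, at 1613 and 748 CPM, with 209 to 480 CPM and 104 to 369 CPM in the other DTT libraries. Neighbours were thus highest in the same library in 2 of the 4 pairs and in the run of 4, where all peaked in liquid DTT replicate 1. They were not in AO090010000721 with AO090010000722 or AO090010000707 with AO090010000708. Liquid DTT replicate 1 was the highest DTT library in 41 of all 71 genes, and liquid DTT replicate 2 in 6. A shared peak in replicate 1 is therefore common among the 71, neighbours or not.

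**Figure D2:**
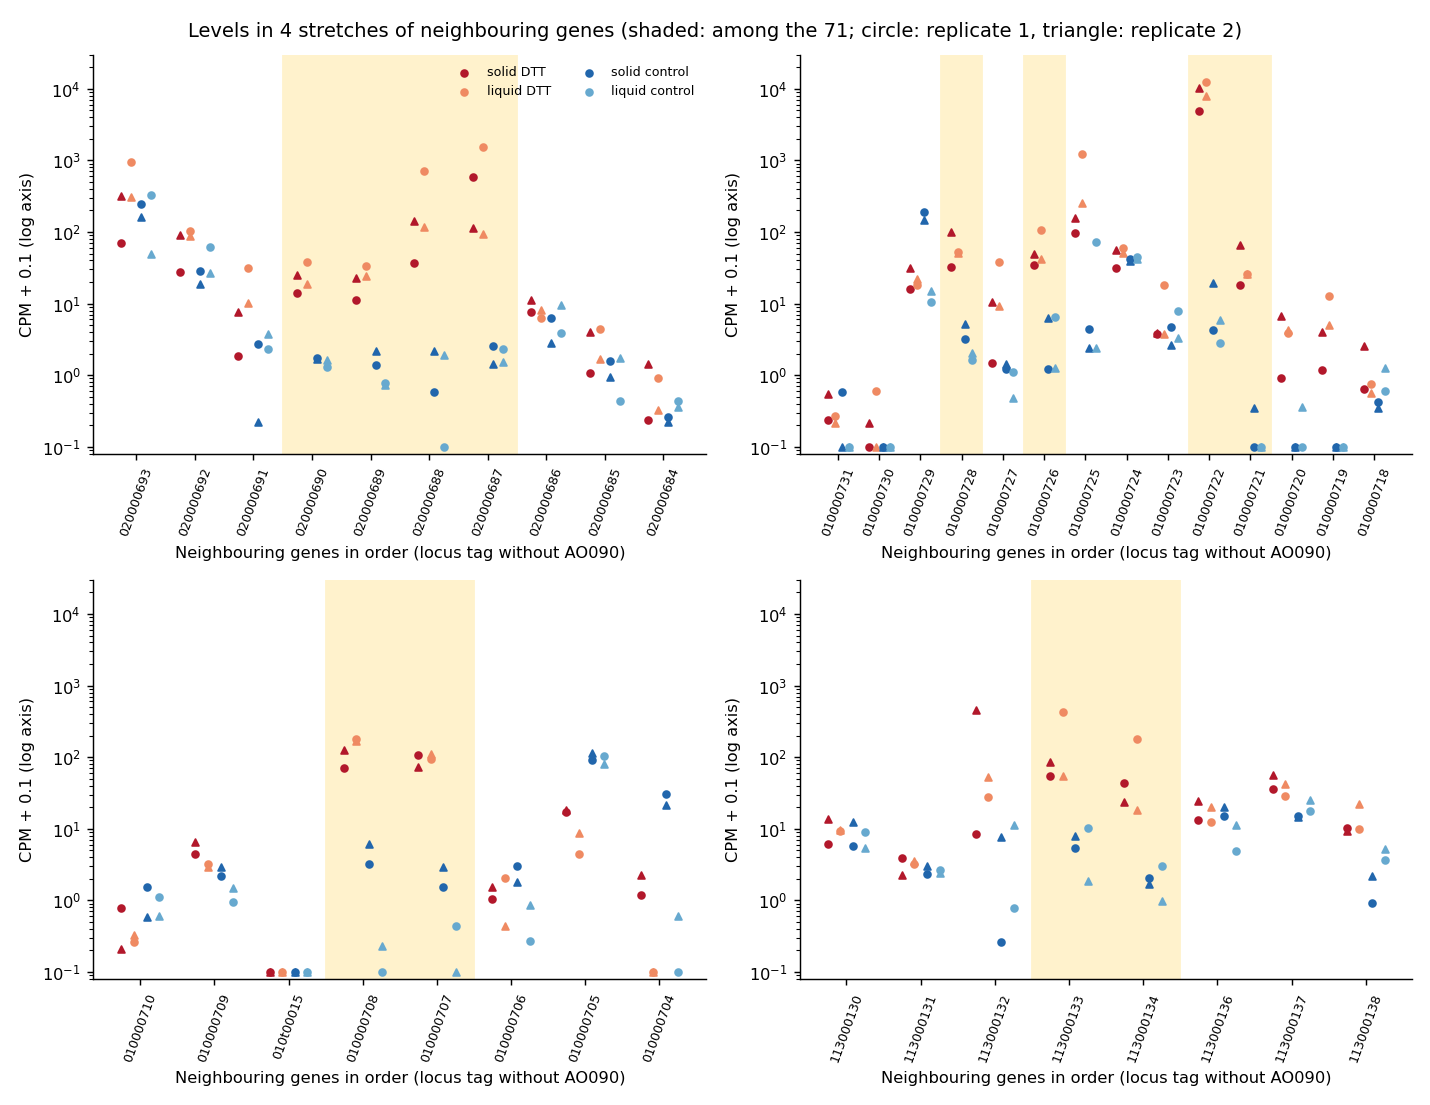
CPM plus 0.1 (log axis) of consecutive genes in 4 stretches of the gene order, in the 8 libraries; shaded genes are among the 71. Red and orange points (DTT) leave the blue points (control) by a factor of 5 or more within the shading, while most flanking genes have overlapping points, apart from such genes as AO090010000725.

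The genes were short. Their median coding length, recovered from the deposited coverage fractions, was 918 bp (369 to 4611 bp), against 1425 bp for the 4312 protein-coding genes at 10 CPM or more in all 4 DTT libraries. Under 1000 bp lay 43 of the 71 (60.6%) and 29.2% of those 4312. The longest was atrF, at 4611 bp, and the shortest AO090020000434, at 369 bp. Length also moved with the library contrast described next, so the part it has there was not tested.

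Read coverage separated the genes' treated state from their untreated one as well. At least 90% of the gene was covered in all 4 DTT libraries for 58 of 71 genes, against 2 genes, AO090005000739 and AO090005000630, in all 4 controls. In 12 genes less than 50% was covered in every control library. Coverage depends on the read number, which the rule used, so this too is a description. AO090012000694 was the exception. It had 14.9 and 16.2 CPM in the solid DTT and 150 and 15.2 CPM in the liquid DTT libraries, yet its reads covered 47, 47, 50 and 47 of 897 bp, or 5.24% to 5.57%. Of 4315 genes at 10 CPM or more in all 4 DTT libraries it was the only one covered under 10% in each of them. In the controls it had 0 to 3 reads over 0 to 47 bp. Its reads thus came from a patch about as long as a read of 44 bp, and whether they derive from that gene was not tested.

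**Figure D3:**
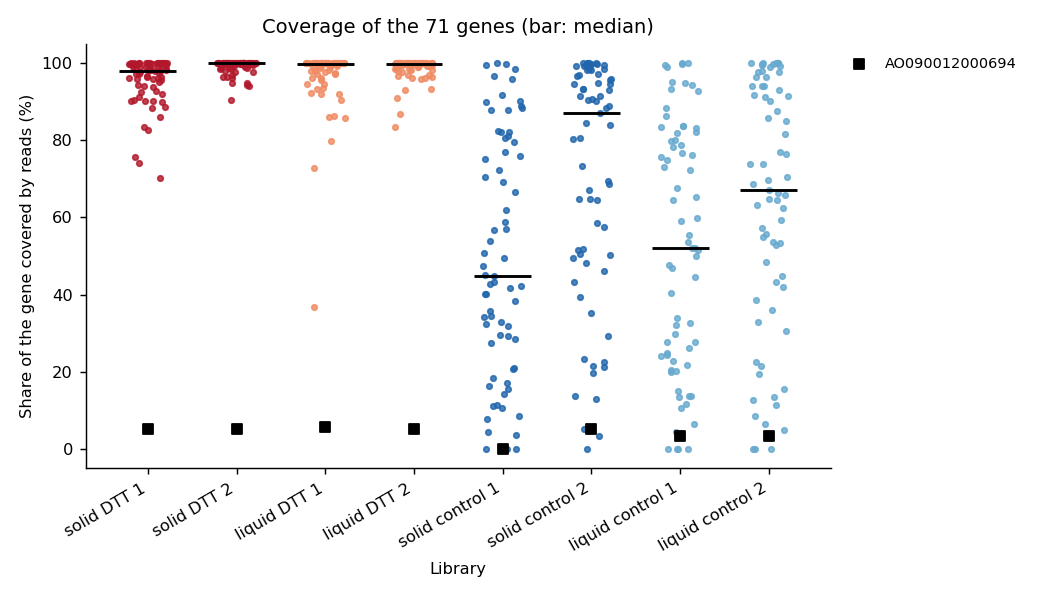
Share of each of the 71 genes covered by reads (%), by library, with the median as a bar. The medians are 98.0% to 100.0% in the DTT libraries and 44.9% to 87.2% in the controls; AO090012000694 (squares) stays at 5.24% to 5.57% in the DTT libraries.

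The libraries of the treated liquid culture differed more over these genes than over all genes at 10 CPM or more in both. The rule used these same levels. Other genes raised by DTT were not compared as a set, so the gap may not be particular to the 71. Liquid DTT replicate 1 was at least 5 times liquid DTT replicate 2 for 17 of 71 genes (23.9%), against 2.23% of the 4655 genes at 10 CPM or more in both, and at least 2 times for 34 (47.9%), against 9.77%. The median ratio of replicate 1 to replicate 2 was 1.64 for the 71 and 0.692 for the 4655. In solid DTT the median ratio was 0.646 for the 71 and 0.645 for the 5313 genes at 10 CPM or more in both, and 1 of the 71 (1.41%) reached 5 times, against 0.565% of the 5313. In the opposite direction, solid DTT replicate 2 was at least 5 times replicate 1 for 3 of the 71 (4.23%), against 1.04% of the 5313, and liquid DTT replicate 2 was at least 5 times replicate 1 for 0 of the 71, against 1.42% of the 4655. Which liquid DTT library stands apart cannot be told from 2.

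AO090120000504 showed the widest gap, with 899 CPM in liquid DTT replicate 1 and 15.5 CPM in replicate 2, a ratio of 57.8, while the solid DTT libraries had 25.7 and 34.1 CPM. AO090005001535 followed, with 2441 and 92.7 CPM in the liquid DTT libraries and 45.7 CPM in each solid DTT library. AO090120000022 (1255 and 67.2 CPM in liquid DTT), AO090020000687 (1548 and 92.5 CPM) and AO090001000164 (5835 and 423 CPM) came next. For these 5 genes the mean of the liquid DTT libraries is set by replicate 1. In liquid DTT the ratio of replicate 1 to replicate 2 was higher in short genes than in longer ones. This held among tested protein-coding genes at 10 CPM or more in both liquid DTT libraries. Their median ratio was 0.983 for the 1101 with a span under 1000 bp and 0.617 for the 3551 longer ones. Within the 71 the median ratio was 2.65 for the 33 short and 1.41 for the 38 longer genes. The 17 genes with a gap of at least 5 had a median coding length of 891 bp, beside 966 bp in the other 54.

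**Figure D4:**
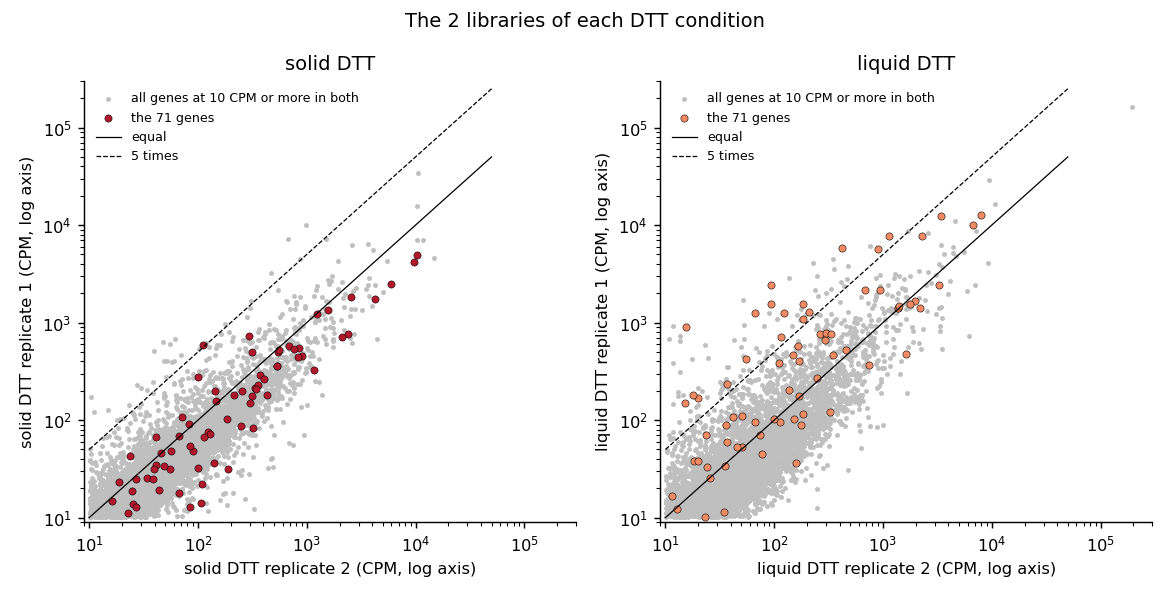
Replicate 1 against replicate 2 (CPM, log axes) of the solid DTT (left) and liquid DTT (right) condition, for all genes at 10 CPM or more in both (gray) and the 71 genes (colored). In liquid DTT 17 of the 71 lie at or above the dashed line of 5 times, in solid DTT 1 does.

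The rule does not contrast the cultures, so differences between solid and liquid culture were tested. It does bound the level under DTT from below in both cultures. Genes low under DTT in either culture are therefore absent, which limits what the calls can show. Under DTT, edgeR called none of the 71 between the cultures, where 2.35% of all tested genes were called higher and 0.593% lower in solid culture. At an unadjusted p under 0.05, 4 were higher and 22 lower in solid culture (13.7% and 9.82% of all genes), and DESeq2's Wald test called 1 higher and 17 lower (6.5% and 4.55%). With insert size as a block, which pairs the libraries, 1 was called higher and 6 lower, where 6.87% and 3.64% of all genes were. Both solid DTT libraries lay below both liquid DTT libraries in 22 of 71 genes (31.0%; 15.4% of all tested genes) and above them in 11 (15.5%; 28.7% of all). The median log2 fold change, solid over liquid, was -1.11 over the 71 and 0.02 over all genes.

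That median rested on liquid DTT replicate 1. Without it the median was 0.14 over the 71 and 0.10 over all genes. Without liquid DTT replicate 2 it was -1.60 over the 71 and 0.15 over all genes. The count lower at an unadjusted p under 0.05 moved as well. It was 7 without liquid DTT replicate 1 (6.93% of all genes), 37 without liquid DTT replicate 2 (12%), 12 without solid DTT replicate 1 (5.8%) and 11 without solid DTT replicate 2 (4.77%). When libraries were scaled by their totals without rRNA in place of TMM, the median over the 71 was -0.66, while that of all genes moved to 0.35.

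The gene called higher in solid culture with the block was AO090009000009, at 199 and 252 CPM in the solid DTT against 52.6 and 45.7 CPM in the liquid DTT libraries (log2 fold change 1.96 ± 0.47, block adjusted p = 0.0397; 1.94 ± 0.52 and 0.0748 without the block). Among the 6 called lower, AO090103000133 had 183 and 215 CPM in the solid DTT and 5684 and 901 CPM in the liquid DTT libraries (-4.15 ± 0.91, block adjusted p = 0.0323). AO090020000434 had 14.2 and 106 CPM in the solid DTT and 759 and 335 CPM in the liquid DTT libraries (-3.73 ± 0.91, block adjusted p = 0.0422). The other 4 called lower with the block were AO090011000920 (-2.54), AO090011000107 (-2.32) and the neighbours AO090003000207 (-2.12) and AO090003000206 (-1.93). In none of the genes called with the block did the cultures overlap under DTT, a state whose shares over all genes are given above. Without the block the largest differences, none of them called, were -5.23 ± 1.48 for AO090005001535 and -4.46 ± 1.02 for AO090103000133, and in the other direction 2.72 ± 1.03 for AO090124000015 and 1.94 ± 0.52 for AO090009000009. Without liquid DTT replicate 1 the difference was -0.92 for AO090005001535 and -2.10 for AO090103000133, and without solid DTT replicate 2 it was 1.39 for AO090124000015.

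Without DTT, 3 of the 71 were called between solid control and liquid control, 1 higher (2.23% of all genes) and 2 lower (1.66%). At an unadjusted p under 0.05, 4 were higher and 6 lower (9.87% and 8.44% of all genes). AO090010000708 was higher on agar, with 19 and 50 reads (3.08 and 6.09 CPM) in the solid control libraries against 0 and 1 read in the liquid control libraries. The scaled ratio was 65.8 with an exact 95% interval of 11.4 to 2635, and edgeR's adjusted p was 0.00795. Its neighbour AO090010000707 had 9 and 23 reads in the solid control against 2 and 0 reads in the liquid control libraries, a ratio of 15.2 (3.89 to 131.3), and was called with the block alone (block adjusted p = 0.0454; 0.0769 without it).

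AO090001000310 was lower in solid culture, with 0.162 and 0.365 CPM in the solid control against 4.08 and 1.91 CPM in the liquid control libraries (log2 fold change -3.41 ± 0.70, edgeR adjusted p = 0.0324). AO090026000179 was lower too, with 4.86 and 6.21 CPM in the solid control against 50.3 and 25.1 CPM in the liquid control libraries (-2.81 ± 0.64, adjusted p = 0.0462). The controls of both genes did not overlap between the cultures. With the block, which pairs libraries by insert size, 3 genes were called higher, AO090010000708, AO090010000707 and AO090011000149 (4.08% of all genes), and 4 lower, AO090001000310, AO090026000179, AO090023000687 and AO090011000209 (4.09%). DESeq2 called 3 higher and 5 lower (4.52% and 4.34% of all genes). The call of AO090010000708 was lost without solid control replicate 2 (adjusted p = 0.0533). That of AO090001000310 was lost without either solid control library, without liquid control replicate 1 and without solid DTT replicate 2 (adjusted p 0.0549 to 0.196), and that of AO090026000179 was lost in the fits without any 1 of the 4 control or the 2 solid DTT libraries.

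Both solid control libraries were above both liquid control libraries in 18 of 71 genes (25.4%; 23.8% of all tested genes) and below them in 16 (22.5%; 22.3% of all), shares near the background. The median log2 fold change without DTT was 0.10 over the 71 and 0.03 over all genes. The rule bounds control levels from above in this comparison.

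**Figure D5:**
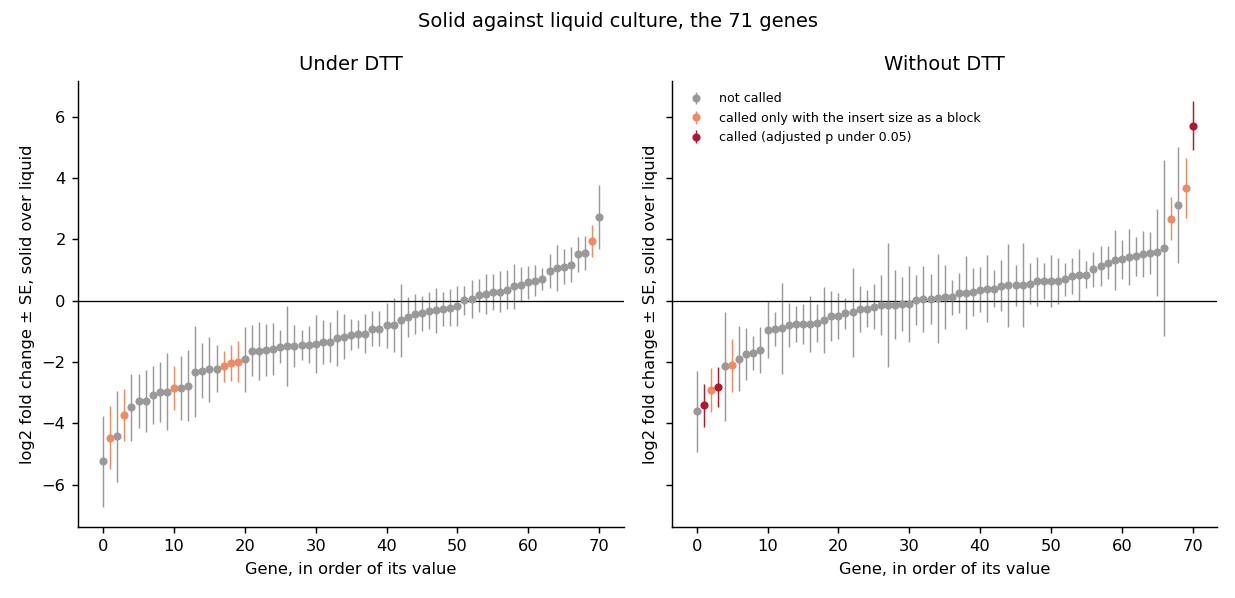
Log2 fold change of solid over liquid culture with its SE for each of the 71 genes in order of size, under DTT (left) and without DTT (right). Under DTT 51 of 71 values are below 0 and none is called without the block; without DTT 1 gene is called higher and 2 lower.

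The size of the DTT effect was then compared between the cultures. The rule asks for at least 5 times the highest control in both cultures. Genes with a weak effect in either culture are therefore absent, which limits this comparison too. EdgeR called a difference for none of the 71 and for 0% of all tested genes in either direction. At an unadjusted p under 0.05 the effect was larger in solid culture for 2 and smaller for 13 (5.83% and 4.8% of all genes). The 13 became 6 without liquid DTT replicate 1 (3.22% of all genes) and 28 without liquid DTT replicate 2 (7.75%), and 6 to 11 when any other library was left out. The median difference over the 71 was -1.24, and 0.19 without liquid DTT replicate 1, beside 0.06 and 0.10 over all genes. DESeq2 called none larger and 3 smaller (1.26% and 0.813% of all genes), AO090010000708, AO090023000592 and AO090103000133. AO090010000708 came closest, with a difference of -6.80 ± 0.93 (log2 scale, adjusted p = 0.0917), and was the single gene of the 71 called with the block (-6.81 ± 0.89, block adjusted p = 0.0396). The block called 0.148% of all genes larger and 0.0954% smaller in solid culture. It had 71.4 and 128 CPM in the solid DTT libraries and 178 and 170 CPM in the liquid DTT libraries, and since the liquid controls held 1 read in all, the size of its difference depends on the fit's treatment of near zero counts. The next in that direction was AO090120000504 (-6.13 ± 3.25), also against 1 read in the liquid controls, and its difference was -0.71 without liquid DTT replicate 1. The largest in the other direction were AO090012000371 (3.06 ± 1.20) and AO090023000260 (2.96 ± 1.73), and none of these 3 was called. The difference of AO090012000371 was 6.36 without solid control replicate 1 and 1.82 without solid control replicate 2. Without liquid control replicate 1, where AO090023000260 stood at 293 CPM, its difference was -0.66.

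Gene lists of ER folding, degradation and detoxification were set beside the 71 genes. They were chosen with earlier results of these data known and are given as counts and medians without a list test. Of all tested genes, DTT against control called 4.86% higher and 4.44% lower in solid culture, with a median log2 effect of -0.0487. In liquid culture it called 8.91% higher and 11.1% lower, with a median of -0.025. The rule removed bipA, derA, trr1, fgaCat and cat1 by name, although only trr1 would otherwise have joined the 71. Absence from the 71 does not mean absence of a response. ER folding (3 genes) had no member. bipA, the ER Hsp70 chaperone, had 7072 and 11616 CPM in the solid DTT and 4110 and 9251 CPM in the liquid DTT libraries, against 685 and 926 CPM in the solid control and 297 and 563 CPM in the liquid control libraries. It was called higher in both cultures. In liquid culture pdiA, protein disulfide isomerase, and clxA, calnexin, also rose, with log2 effects of 2.56 ± 0.66 and 2.62 ± 0.73. In solid culture pdiA (2.17 ± 0.65) and clxA (2.48 ± 0.73) were called with the block alone, at block adjusted p of 0.0199 and 0.0188. The list's median effect was 2.48 in solid and 2.62 in liquid culture.

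Of the 4 genes of ER-associated degradation, hacA and signal peptidase, none was among the 71, 3 rose in solid culture and 1 in liquid culture, with medians of 2.19 and 1.31. hrdA, a ubiquitin ligase of the ER membrane, rose by 2.51 ± 0.46 in solid and 2.02 ± 0.45 in liquid culture on the log2 scale. derA rose by 2.88 ± 0.59 and sec11, a signal peptidase subunit, by 1.87 ± 0.37 in solid culture. In liquid culture derA (1.68 ± 0.57, block adjusted p = 0.0203) and sec11 (0.93 ± 0.37, block adjusted p = 0.0408) were called with the block alone. The total level of hacA was not called in either culture (0.76 ± 0.48 in solid and 0.65 ± 0.48 in liquid culture), and these counts do not separate its spliced from its unspliced mRNA. On the ratio of lowest DTT to highest control library that defines the 71, these 7 genes ranged from 0.975 for hacA to 4.44 for bipA, all under 5.

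Thiol and peroxide defence held 10 genes, none of them among the 71, with nap1 caught by the search for symbols although it is no defence gene. Of these, 2 rose in solid culture and 3 in liquid culture, and the medians were 0.51 and 1.32. trr1, thioredoxin reductase, had 2858 and 3746 CPM in the solid DTT and 4997 and 3616 CPM in the liquid DTT libraries, against 187 and 298 CPM in the solid control and 168 and 186 CPM in the liquid control libraries, a ratio of 9.58 by which it would have belonged to the 71. fgaCat, named as a catalase, rose by 2.43 ± 0.59 in solid and 4.83 ± 0.66 in liquid culture. cat1, a catalase, rose by 2.50 ± 0.67 in liquid culture, and its effect in solid culture, 2.45 ± 0.67, was called with the block alone (block adjusted p = 0.0208). The block alone also called sod2, a superoxide dismutase, higher in both cultures (block adjusted p = 0.0104 in solid and 0.0128 in liquid culture), yap1 higher in liquid culture (0.0464), and glr1 and sod1 lower in solid culture (0.0358 and 0.0371).

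Of the 9 genes the symbol search returned for efflux transporters, which also included the regulator atrR and the ribosomal protein gene mrpl4, atrF alone was among the 71. In solid culture 2 rose and 1 fell, and in liquid culture 2 rose, with medians of -0.02 and 0.51. mdr1, named for multidrug resistance, rose beside atrF, by 3.49 ± 0.71 in solid and 3.68 ± 0.72 in liquid culture. mfsA, named for the major facilitator family, fell in solid culture to 4.38 and 14.2 CPM in the DTT libraries, against 232 and 164 CPM in the controls. In liquid culture the block alone called abcB higher (block adjusted p = 0.0416) and atrA lower (0.0402).

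Among the 7 cytosolic and mitochondrial chaperones none was called in solid culture and hsp78, a mitochondrial chaperone, rose in liquid culture by 3.12 ± 0.53, with medians of -0.0032 and -0.02. With the block alone hsp78 was called in solid culture as well (1.62 ± 0.50, block adjusted p = 0.0402). hsp70 and hsp90 were called in neither culture. Of the 4 DNA repair genes rad7 rose, by 3.09 ± 0.52 in solid and 4.40 ± 0.55 in liquid culture, and of the 5 autophagy genes atg1, the kinase that starts autophagy, rose, by 2.73 ± 0.47 in solid and 2.23 ± 0.46 in liquid culture. The block alone called atg2 higher in both cultures (block adjusted p = 0.0487 in solid and 0.0186 in liquid culture) and atgI in liquid culture (0.0273). The median effects were 0.67 in solid and 0.94 in liquid culture for DNA repair and 0.78 and 1.16 for autophagy. None of these 3 lists held one of the 71.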

How the data were processed

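Per the file headers, 2 values are deposited for each gene: a number of mapped reads, taken here as a raw count, and a coverage fraction, the share of the gene with reads. Not given in the sources used here are the aligner, genome build, annotation, strand and handling of multi-mapping reads, and reads of a gene and an antisense partner cannot be told apart. The count tests used edgeR 4.0.16 in R 4.3.3 with filterByExpr (minimum count 10), TMM factors of 0.73 to 1.25, 1 coefficient per condition over all 8 libraries and 4 residual degrees of freedom; SE is the log2 fold change over the root of F. The fit recovered changed genes in simulated counts that held no difference between insert sizes, which checks the code and not the comparisons of these libraries. DESeq2 1.42.0 was an alternative, as were RLE scaling, totals without rRNA, no filter, other thresholds of the rule and leaving out each library. CPM, levels and the rule used totals per file, the fits TMM. Coding lengths are the largest whole number of codons within the gene span at which every deposited coverage fraction is a whole number of bases. They may differ from the true ones. For AO090005000739 both 288 and 576 bp fitted, and 576 bp was used.

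Replicate numbers coincide with insert size in the labels. The differences between replicates 1 and 2 correlated at 0.24 to 0.51 across all 6 pairs of conditions, so the numbers were taken to pair the libraries, and the fit with a replicate block is given where it changes a call. With 1 to 3 reads in a condition, the ratio has an exact 95% binomial interval; the floor is 3 reads. Intervals and floors cover counting error only.

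The 71 genes and the lists were chosen with earlier results of these data known. Genes named are those with a symbol, the 12 largest ratios, the 8 highest per kb of coding length, those called between cultures (up to 6 per direction, otherwise the 2 largest), direct neighbours, 3 on either side of each threshold and up to 3 per list; hsp70, hsp90, listed genes called with the block alone, flanking genes and genes with replicate gaps were named after their values were seen. The locus tags of all 11880 genes matched the RefSeq table of assembly ASM18445v3, used for names and gene order only. Sequence features were not analysed here.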

Additional observations from a re-analysis of the deposited data

How the results depend on the processing

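The number of genes meeting the rule was 110 at 3 times and 32 at 10 times the highest control, 122 from replicate 1 and 189 from replicate 2 alone, and 75 to 108 when a library was left out, the most without solid DTT replicate 1. It was 86 without rRNA in the totals (70 shared with the 71) and 79 with TMM-scaled CPM (69 shared).

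Between solid DTT and liquid DTT, edgeR called 0 of the 71, against 3 with totals without rRNA, 8 with no filter, 7 with the replicate block, 18 with DESeq2 and 0 to 12 when a library was left out. Between solid control and liquid control it called 3, against 6 with no filter, 7 with the block, 8 with DESeq2 and 0 to 4 when a library was left out. For the difference of the DTT effects edgeR called 0. With no filter it called 0 larger and 1 smaller in solid culture (0.146% and 0.0773% of all genes), while the block called 1 and DESeq2 3. For DTT against control the block called 71 higher in both cultures, where 9.96% of all genes in solid and 14.2% in liquid culture were. It changed no call of the 71 or of the listed genes other than those named above. AO090023000260 reversed without liquid control replicate 1, to 0.0227 for solid over liquid control (-4.61 to 0.0227 when a library was left out, -3.61 with all) and to -0.66 for the difference of effects (-0.66 to 3.94, 2.96 with all); its level in that library, 293 CPM, is the one left out. Of 611 values of single genes under the alternatives, 520 kept direction and side of the threshold. The causes of the other changes were not tested. At these depths 3 reads are 0.337 to 0.510 CPM, which limits the levels without DTT of the 6 genes under 1 CPM in every control.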
